A study of Homo sapiens with 12 samples.

Results

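The 3 arrays of Raji cells that carried a non-targeting short hairpin RNA (shNTC) were examined here as a picture of the cell line's own transcriptome. They are 3 of the 12 arrays of a series on the regulation of CD20, the product of MS4A1, in lymphoma. All 3 were taken by their label, and each of 20046 genes was represented by 1 probe, the one with the highest mean over the 3 arrays. Genes were ranked by raw intensity within each array, and a gene was called detected where the probe's detection p-value was under 0.05. Every culture of the series was Raji, was transduced with a hairpin, was selected with puromycin for 48 h and gave total RNA 3 days after transduction. The labels fall into 2 naming sets. Set 2, whose labels carry a number, holds shNTC replicates 1 and 2 with 2 arrays each of shMBD2_A and shMBD2_C. Set 1, whose labels carry none, holds shNTC replicate 3 with 3 arrays of shMS4A1 (hairpins A, B and C) and 2 of shCREM (hairpins A and B). The labels do not say that replicates were separate cultures, so p-values measure the spread between these arrays, which may be technical. The data come from a bulk culture, in which fewer cells of a type and less RNA per cell cannot be told apart.

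Raji is an established human Burkitt lymphoma line. Burkitt lymphoma arises from germinal centre B cells, and a translocation places MYC, a transcription factor that drives ribosome production and cell growth, under an immunoglobulin locus. The markers used for this identity were CD79A, a signalling chain of the B cell antigen receptor, CD74, the chaperone of MHC class II, MYC, and MME, which encodes the germinal centre antigen CD10.

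The 3 arrays differed in brightness. Median raw intensity over all probes was 76.9 on replicate 1, 83.6 on replicate 2 and 105 on replicate 3, and the knockdown arrays followed their sets. Probes detected numbered 18652 on replicate 1, 20128 on replicate 2 and 20483 on replicate 3, and replicate 1 had the fewest of the 12 arrays. Genes are therefore ranked by raw intensity within an array. Differences between arrays are given after background correction and quantile normalization, on a log2 scale. Raw intensities printed beside them are not scaled for brightness and do not give the size of a difference. A rank is a rank of probe brightness, which depends on the probe as well as on the RNA, and is not an order of RNA amounts.

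Of the 20046 genes, 9026 (45%) were detected on all 3 shNTC arrays, 7130 (35.6%) were undetected on all 3, and 3890 were detected on 1 or 2. Genes in the top 5% of signal on all 3 arrays numbered 822 (4.1%), and 165 of these were in the top 1% on all 3. A further 6491 genes lay between the top 5% and the low class, and 1713 were low, which means detected on all 3 arrays and in the lowest 25% of those genes on each. At the edge of the top 5%, the last gene inside had an intensity of 1172.9 on replicate 1, 1472.4 on replicate 2 and 2238.1 on replicate 3, and the next gene outside had 1171.8, 1472.1 and 2224.7 on the same arrays. The detection threshold was not a sharp one, since the dimmest detected gene had an intensity of 75.9 on replicate 1, 83 on replicate 2 and 104 on replicate 3, while the brightest undetected gene had 114, 107 and 137 on those arrays. Among the genes detected on 1 or 2 arrays, 686 were detected on replicate 1 alone, 896 on replicate 2 alone and 1038 on replicate 3 alone.

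The order of genes was closely shared. Over the genes detected on all 3 arrays, Spearman's rho was 0.969 between replicates 1 and 2, 0.932 between replicates 1 and 3 and 0.955 between replicates 2 and 3 (9026 genes, which are not independent). Over all genes, most of them near background or undetected, rho was 0.853 to 0.872. Of the 201 genes in the top 1% of each array, replicates 1 and 2 shared 180, replicates 1 and 3 shared 169, and replicates 2 and 3 shared 179. The detected set also held on the 9 knockdown arrays, where 8303 of the 9026 genes (92%) were detected on every array and 1 on none. Of the 7130 undetected genes, 4062 (57%) were detected on none of the 9 and 2 on all 9.

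**Figure D1:**
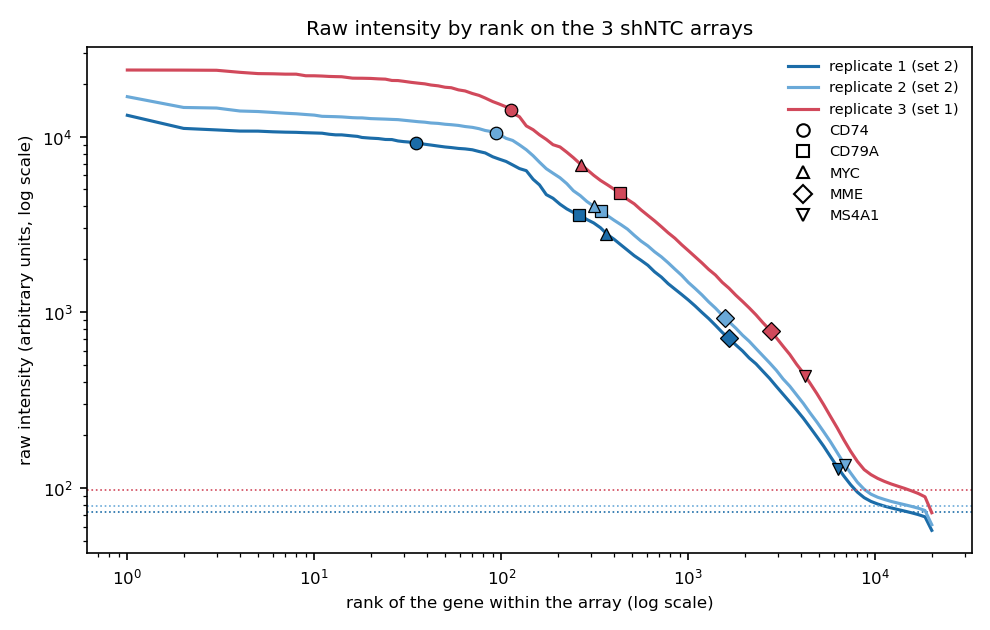
Raw intensity (vertical log axis, arbitrary units) against the rank of a gene within its array (horizontal log axis) for shNTC replicates 1, 2 and 3. Symbols mark CD74, CD79A, MYC, MME and MS4A1 on each curve, and dotted lines mark the mean intensity of probes at background (73.3 on replicate 1, 79.4 on replicate 2 and 97.8 on replicate 3). The curve of replicate 3 lies highest, and MS4A1 lies near the foot of the curve on replicates 1 and 2.

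The top of the list was the machinery of protein synthesis. Of the 20 genes with the highest mean rank, EEF1A1, which brings aminoacyl-tRNA to the ribosome, stood first on replicates 1 and 2 and at rank 5 on replicate 3, with intensities of 13201, 16849 and 22797 on replicates 1, 2 and 3. Next came RPL41, a protein of the large ribosomal subunit (11118, 14628 and 22162), and OAZ1, antizyme, which sends ornithine decarboxylase to degradation (10508, 13338 and 22634). RPS14, a protein of the small subunit, had 9354, 13562 and 23179. The others of the 20 were the ribosomal protein genes RPL3, RPL9, RPS13, RPL38, RPS29, RPL17, RPS15 and RPS6, the translation-associated TPT1, the poly(A) binding protein gene PABPC1, the histone gene H4C3, the actin-binding thymosin gene TMSB4X, the cyclophilin-like PPIAL4A, and 3 genes annotated as transcribed pseudogenes, RPL13AP5, TUBA3FP and RPSAP9. Probes of pseudogenes and of near-identical copies cannot be told apart from their parent genes here.

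Many housekeeping genes were in the top 5%. Of 69 ribosomal protein genes on the array, 68 were detected on all 3 arrays, 61 were in the top 5% and 53 in the top 1%, and their median percentile was 99.6 on each array. The exception, RPL10, read 72.8, 76.4 and 102.5 on replicates 1, 2 and 3, close to background, which describes its probe and not the absence of the protein. All 27 translation factor genes were detected and 20 were in the top 5%. The 36 genes of oxidative phosphorylation were all detected, with 28 in the top 5%, led by ATP5F1B, a subunit of ATP synthase (9436, 11576 and 20178), and COX7A2 of cytochrome c oxidase (10474, 11259 and 19351). Glycolysis had 18 of 19 genes detected and 11 in the top 5%, with GAPDH (10015, 11974 and 19545), ENO1, enolase (8495, 11886 and 21965), LDHA, lactate dehydrogenase (10586, 12109 and 14193), and TPI1 in the top 1%. All 23 cytoskeleton genes were detected and 16 were in the top 5%, among them the actin genes ACTB and ACTG1 and the tubulin genes TUBA1A and TUBA1B. Among the heat shock proteins 12 of 16 were detected and 8 were in the top 5%, with the chaperonin HSPD1 at 6651, 8471 and 15315, while CRYAB, BAG3 and HSPA1A were undetected.

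**Figure D2:**
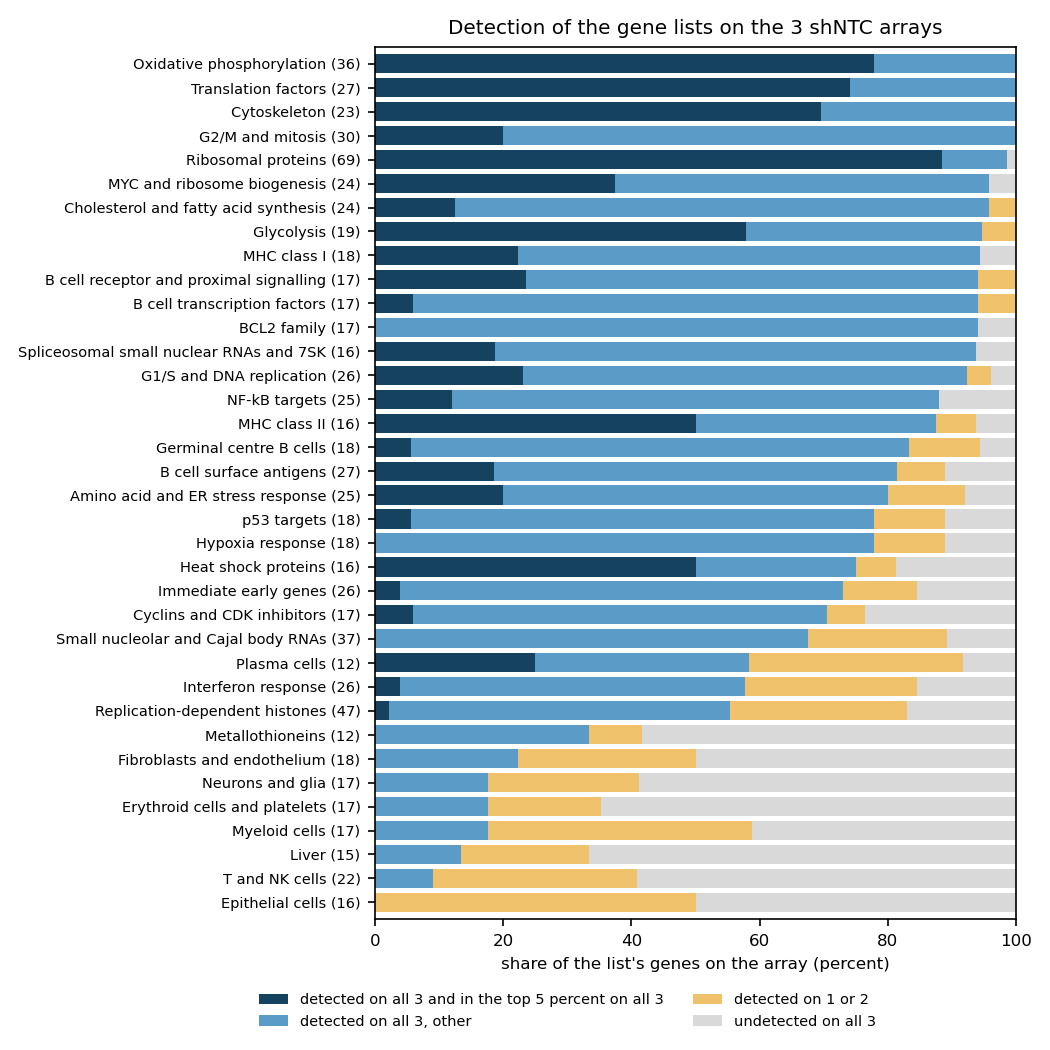
Share of the genes of each list (horizontal axis, percent of the genes on the array, whose number follows the name) that were in the top 5% of signal on all 3 shNTC arrays, otherwise detected on all 3, detected on 1 or 2, or undetected on all 3. Housekeeping and B cell lists are at the top, and the 7 lists of other cell types are at the bottom together with metallothioneins.

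Promoter sequence differed along the same axis. RefSeq (GRCh38.p14) gave a promoter window, from 250 bases before to 50 bases after the start, for 15033 of the 20046 genes. The median number of CpG dinucleotides in the window was 26 for detected genes, 17 for genes detected on 1 or 2 arrays and 11 for undetected genes, against 22 for all genes with a promoter. Within the detected genes it hardly moved with brightness, being 24 in the top 1%, 25 in the top 5% and 25 in the low class. A TATA box (TATAAA on either strand) was present in 5.52% of detected, 14.5% of undetected and 9.53% of all promoters. An ETS core (CCGGAAG or CTTCCGG) was present in 20 of 59 ribosomal protein promoters (33.9%) and in 14.3% of all. Its share was 25.6% in the top 1%, 21.7% in detected and 5.85% in undetected promoters. These are descriptions of the windows. The promoters of RPS14, detected near the top of each array, and of APOA2, an apolipoprotein gene of liver at 73.3, 71.2 and 99 and undetected on all 3, show the contrast, with every CpG in capitals: 27 in RPS14 (chr5:150449690-150449989, minus strand) and 1 in APOA2 (chr1:161223579-161223878, minus strand).
RPS14: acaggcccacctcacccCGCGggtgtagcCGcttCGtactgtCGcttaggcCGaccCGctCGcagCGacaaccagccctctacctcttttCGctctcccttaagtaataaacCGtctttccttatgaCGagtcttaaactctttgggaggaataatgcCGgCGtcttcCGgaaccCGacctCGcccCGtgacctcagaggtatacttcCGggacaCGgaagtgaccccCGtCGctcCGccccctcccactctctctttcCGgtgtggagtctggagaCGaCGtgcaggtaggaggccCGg
APOA2: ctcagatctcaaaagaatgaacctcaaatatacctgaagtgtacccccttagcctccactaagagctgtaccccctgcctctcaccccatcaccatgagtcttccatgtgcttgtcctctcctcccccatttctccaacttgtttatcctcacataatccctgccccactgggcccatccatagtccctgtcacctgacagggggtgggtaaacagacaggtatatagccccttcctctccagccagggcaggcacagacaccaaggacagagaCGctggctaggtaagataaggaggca

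The B cell identity was present on each array. CD74 had intensities of 9161, 10494 and 14170 on replicates 1, 2 and 3, at ranks 35, 94 and 112. CD79A had 3579, 3789 and 4744, at ranks 261, 340 and 431. MYC had 2789, 3998 and 6919, at ranks 365, 313 and 266. MME had 710, 925 and 780, at ranks 1646, 1577 and 2766, and it was detected on all 3 arrays through 1 of its 4 probes. All 4 markers were thus detected on each array, which does not tell Raji from other B cell lines. MS4A1, the gene of CD20, was far lower in rank at 129, 135 and 436, ranks 6344, 6896 and 4230, and its second probe gave 157, 133 and 295.

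Of 17 genes of the B cell receptor and its proximal signalling, 16 were detected and 4 were in the top 5%. CD81, a coreceptor chain, had 6598, 10140 and 13093 on replicates 1, 2 and 3. CD79B, the partner of CD79A, had 6593, 9069 and 13320. PLCG2, the phospholipase downstream of the receptor, and BTK, a receptor-proximal kinase, followed, while the adaptor gene BLNK was detected on 1 array only. Of 27 surface antigen genes 22 were detected and 5 were in the top 5%, led by CD70, the ligand of CD27 (7208, 4911 and 6327), with CD48, FCRLA, CCR7 and CD27. FCER2, the gene of CD23, FCRL1 and FCRL5 were undetected on all 3 arrays. Among 18 germinal centre genes 15 were detected, with IRAG2, SERPINA9, BCL6, the repressor that sustains the germinal centre programme (1608, 2838 and 1540), VPREB3 and TCL1A the brightest, and S1PR2 undetected. Of 17 B cell transcription factor genes 16 were detected, with ETS1, IRF8, POU2AF1, TCF3 and BCL11A the brightest. The B cell regulator PAX5 was detected on 1 array only, at 71.9, 92.9 and 93.3. Plasma cell genes were sparser, with 7 of 12 detected. SSR4, MZB1, JCHAIN, FKBP11 and XBP1 led them, PRDM1, which drives plasma cell differentiation, was detected on 2 arrays, and ITGA8 was undetected.

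Antigen presentation was among the brightest specialised functions. Of 16 genes of MHC class II and its processing, 14 were detected and 8 were in the top 5%. CD74, HLA-DRA, HLA-DRB4, HLA-DPA1 and HLA-DRB6 stood highest, and HLA-DRA, the class II alpha chain, had 6842, 11561 and 16186 on replicates 1, 2 and 3. HLA-DRB5 was undetected. HLA genes vary between people and have close relatives, so a probe can miss an allele or read a neighbour. MHC class I had 17 of 18 detected, with B2M, the light chain, at 7666, 11320 and 15312, followed by ERAP2, HLA-B, PSMB10 and HLA-F. Its undetected member, the disulfide isomerase gene PDIA3, read 68.1, 80.9 and 101. The MHC class II promoters shared a feature that the choice of arrays did not use: 10 of the 11 with a RefSeq window held a CCAAT box (CCAAT or ATTGG), or 90.9%, against 36.5% of all promoters. Their median number of CpG was 3. In the promoter of CD74 (chr5:150412861-150413160, minus strand) the box occurs 1 time and in that of HLA-DMA, a peptide-loading chaperone chain (chr6:32953048-32953347, minus strand), 2 times, in capitals.
CD74: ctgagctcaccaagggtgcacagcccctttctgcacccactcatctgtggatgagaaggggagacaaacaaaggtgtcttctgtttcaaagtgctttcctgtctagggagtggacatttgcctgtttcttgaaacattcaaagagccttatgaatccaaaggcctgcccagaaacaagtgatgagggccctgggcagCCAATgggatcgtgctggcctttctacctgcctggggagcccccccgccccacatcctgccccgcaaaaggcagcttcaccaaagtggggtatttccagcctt
HLA-DMA: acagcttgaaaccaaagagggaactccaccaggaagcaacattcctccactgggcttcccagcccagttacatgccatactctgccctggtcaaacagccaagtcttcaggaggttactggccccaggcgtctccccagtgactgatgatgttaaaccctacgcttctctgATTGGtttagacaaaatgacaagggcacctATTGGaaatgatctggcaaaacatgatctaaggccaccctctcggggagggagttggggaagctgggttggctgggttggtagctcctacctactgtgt

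The growth and division programmes were on. Of 24 genes of MYC targets and ribosome biogenesis 23 were detected and 9 were in the top 5%, with the nucleoside diphosphate kinase gene NME1 at 5330, 5785 and 10383, then ODC1, the nucleolar NCL, APEX1 and MYC itself. NPM1, nucleophosmin, was undetected at 72.2, 77.2 and 83.6. As with RPL10, PAX5 and PDIA3 above, this describes the probe and does not show that the gene is silent. All 30 G2/M genes were detected, led by PTTG1, securin (2874, 4382 and 5170), UBE2C, CKS2, TOP2A and CCNB2. Of 26 genes of G1/S and DNA replication 24 were detected, with the helicase subunits MCM7 (3041, 4747 and 8630) and MCM3 highest, then TYMS, RRM1 and MCM6. The D-type cyclins were unequal, since CCND3 had 1112, 2318 and 4314 while CCND1 and CCND2 were undetected on all 3 arrays, as were CCNE2 and CDKN1C. In the BCL2 family 16 of 17 were detected, none in the top 5%, with BCL2L1, BAX, PMAIP1, MCL1 and BCL2 the brightest and BCL2L10 undetected. Cholesterol and fatty acid synthesis had 23 of 24 detected, with the desaturase gene SCD, INSIG1, FASN, SQLE and ACLY the brightest.

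Most inducible programmes, and the histones and small RNAs given here, sat lower than the G2/M genes. The median percentile of G2/M was 90.2, 88.9 and 87.7 on replicates 1, 2 and 3. Of all genes, 45% were detected on all 3 arrays. Of 25 NF-kB targets 22 were detected, led by LTB, NFKBIA, NFKB1, CD83 and EBI3, and IL6, CCL4 and TNFAIP2 were undetected. The interferon response list had 15 of 26 detected, with ISG20, BST2, ISG15, OAS2 and IRF9 the brightest and MX1, OAS3, IFIT5 and USP18 undetected. Hypoxia response genes numbered 14 detected of 18, none in the top 5%, and BNIP3 and EGLN3 were undetected. The amino acid and endoplasmic reticulum (ER) stress response had 20 of 25, with ATF4, its central transcription factor, at 5305, 6548 and 8511, and with PHGDH, ASNS, SHMT2 and MANF. STC2 and VLDLR were undetected. This list sat higher than the others given here, with median percentiles of 89.7, 81.1 and 88.7 on replicates 1, 2 and 3. Of 26 immediate early genes 19 were detected, with JUND, BTG1, KLF6, DUSP2 and MCL1 brightest and DUSP4, NR4A1, EGR3 and NR4A3 undetected. p53 targets had 14 of 18, with ZMAT3 and CCNG1 highest and PLK3 and PHLDA3 undetected. Of 12 metallothionein and zinc genes 4 were detected, MT2A, MT1X, MTF1 and SLC30A1, and 7 were undetected. Replication-dependent histones had 26 of 47 detected and spliceosomal small nuclear RNAs with 7SK 15 of 16, all but RNU5D-1. Small nucleolar and Cajal body RNAs had 25 of 37, with SNORD3D the brightest and SCARNA21, SNORD18A, SCARNA5 and SCARNA6 undetected.

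Markers of other cell types were mostly at background. T and NK cell genes were detected on all 3 arrays in 2 of 22 (CD247 and CD2), myeloid genes in 3 of 17 (CD68, FCGR3A and CD14) and erythroid or platelet genes in 3 of 17 (EPOR, GP1BA and PPBP). Epithelial genes were detected in 0 of 16, fibroblast and endothelial genes in 4 of 18 (ACTA2, COL1A1, TAGLN and PECAM1), neuronal and glial genes in 3 of 17 (MBP, TUBB3 and DLG4) and liver genes in 2 of 15 (CYP2E1 and ALB). In each of the 7 lists the share was below the 45% of all genes. The summed raw intensity of the T and NK list was 1701, 1815 and 2324 on replicates 1, 2 and 3, that is 22 genes each near background, against 25453, 32652 and 44899 for the 17 B cell receptor genes. The brightest member of the 7 lists, MBP at 554, 556 and 919, is a gene whose locus also gives transcripts in lymphoid cells. CD3D was detected on 1 array and CD8A on none.

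Gene families that act in few tissues were at the bottom. These families were grouped after the values had been seen. Olfactory receptor genes were detected on all 3 arrays in 7 of 384 (1.82%) and microRNA genes, whose mature products this platform does not read, in 22 of 561 (3.92%). Long non-coding RNA genes were detected in 133 of 798 (16.7%), snoRNA genes in 115 of 279 (41.2%), snRNA genes in 14 of 16 (87.5%) and protein-coding genes in 8548 of 17776 (48.1%). The dimmest genes detected on all 3 arrays by mean rank were F7, VAT1L, EDARADD, TIGD6 and LINC02913. F7, which encodes a coagulation factor, had 80, 85.3 and 106 on replicates 1, 2 and 3, close to the dimmest value that passed on each.

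A bright probe did not always have a second to back it. Of the 165 genes in the top 1%, 96 have more than 1 probe, and for 9 of these (F2R, TUBA3FP, ITIH5, GABPB2, GNAS, CDKN2AIPNL, RPL19P12, RPS26P11 and TCAF1) every other probe was undetected on all 3 arrays. F2R, the thrombin receptor, ranked 66, 62 and 15 by a probe at 8441, 11487 and 21533, while its other probe read 70.3, 83.9 and 108 and was undetected. The position of such genes rests on 1 probe. MYC did not share this limit, since its second probe read 1041, 1891 and 3594.

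The next question was which classes of gene differed among the 3 controls. Set 2 (replicates 1 and 2) was compared with set 1 (replicate 3) with limma over 13432 genes detected on at least 2 of the 12 arrays. Set 1 has 1 shNTC array, so naming set and culture cannot be told apart, the spread came from the knockdown groups and replicates 1 and 2, and replicate 3 was assumed to vary like them. Different hairpins to the same gene served as replicates in the shMS4A1 and shCREM groups, so that spread includes differences between hairpins, and the count of called genes was 1318 without shCREM hairpin A and 1316 without hairpin B. A gene that passed the detection filter only through arrays where it is high had to differ. At an adjusted p under 0.05, 352 genes were higher in set 2 (2.62%) and 536 were lower (3.99%), and 2905 had an unadjusted p under 0.05. The count rested on the arrays of replicates 1 and 2, being 415 without replicate 1 and 1487 without replicate 2. Under a shift of each array to a common median in place of quantile normalization, the median difference of all genes was -0.29 log2, against -0.0059 in the main analysis, and the split became 75 higher and 1273 lower. Directions below are those relative to quantile-normalized arrays.

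The markers moved little or moderately. CD74 differed by 0.28 ± 0.15 log2 (SE; limma adjusted p = 0.317), CD79A by 0.41 ± 0.18 (adjusted p = 0.203) and MYC by -0.30 ± 0.15 (adjusted p = 0.273), and none of the 3 passed; under the median shift the differences of CD74 and CD79A were -0.29 and -0.12. MME was higher in set 2, with log2 levels of 9.92 and 9.98 on replicates 1 and 2 against 9.02 on replicate 3 (0.93 ± 0.21, limma adjusted p = 0.0169), and kept its call under 15 of 17 alternatives. MS4A1 was lower in set 2, at 6.64 and 6.29 against 8.06 (-1.60 ± 0.32, 3.03-fold, limma adjusted p = 0.00906), with both set 2 arrays under the set 1 array. Its call held under all 17 alternatives, which all used the same probe. That probe read 129, 135 and 436 on replicates 1, 2 and 3, and it had the highest mean through replicate 3. The second probe read 157, 133 and 295, and the third was undetected on all 3. The fold rests on 1 probe whose set 2 readings were not far above background (73.3 on replicate 1 and 79.4 on replicate 2).

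Hypoxia-inducible genes had the highest median of any list in set 2. These genes are switched on by HIF, the transcription factor that accumulates when oxygen is short, and serve in glycolysis, mitochondrial turnover and restraint of growth. Of 16 members tested, 8 were higher and 0 lower, against 2.62% and 3.99% of all genes, 15 lay above 0, and the median was 1.30 log2 against -0.0059 over all genes. DDIT4, an inhibitor of mTORC1 signalling, had raw intensities of 4342 and 3936 on replicates 1 and 2 against 833 on replicate 3, log2 levels of 12.67 and 12.11 against 9.13, and a difference of 3.26 ± 0.37 (9.56-fold, limma adjusted p = 0.000476). ANKRD37, a HIF target of little-known role, had log2 levels of 9.33 and 8.16 against 5.64 (3.11 ± 0.42, 8.61-fold, limma adjusted p = 0.00114). Both replicates of set 2 stood well apart from replicate 3 for these genes. EGLN1, the oxygen-sensing hydroxylase that marks HIF for destruction, was at 8.68 and 7.97 against 5.89 (2.43 ± 0.41, limma adjusted p = 0.00318). P4HA1, a collagen prolyl hydroxylase subunit, BNIP3L, which targets mitochondria for removal, and the chemokine receptor gene CXCR4 were higher by 1.71, 1.83 and 1.48 log2, as were KDM4B (1.55) and ADM (1.33). HILPDA, the gene of a hypoxia-inducible lipid droplet protein outside the list, was among the 10 largest increases, with levels of 11.63 and 11.30 on replicates 1 and 2 against 8.70 on replicate 3 (2.77 ± 0.26, 6.81-fold, limma adjusted p = 0.000206).

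The ACGTG core of the hypoxia response element, or CACGT on the other strand, was found in 8 of 15 hypoxia promoters (53.3%) and 8 of 18 glycolysis promoters (44.4%), against 24% of all. The core is contained in the CACGTG E-box, which it cannot be told apart from in such a count. The windows of DDIT4 (chr10:72273674-72273973, plus strand) and ANKRD37 (chr4:185396591-185396890, plus strand), the largest differences of the list, are shown with the core in capitals. DDIT4 holds 1 match and ANKRD37 holds 3, of which 2 are the overlapping strands of 1 E-box.
DDIT4: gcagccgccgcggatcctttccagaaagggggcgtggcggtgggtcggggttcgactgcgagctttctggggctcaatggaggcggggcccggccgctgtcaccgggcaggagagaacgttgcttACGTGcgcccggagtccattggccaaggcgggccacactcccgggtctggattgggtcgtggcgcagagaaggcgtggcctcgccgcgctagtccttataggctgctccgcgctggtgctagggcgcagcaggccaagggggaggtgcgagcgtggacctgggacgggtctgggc
ANKRD37: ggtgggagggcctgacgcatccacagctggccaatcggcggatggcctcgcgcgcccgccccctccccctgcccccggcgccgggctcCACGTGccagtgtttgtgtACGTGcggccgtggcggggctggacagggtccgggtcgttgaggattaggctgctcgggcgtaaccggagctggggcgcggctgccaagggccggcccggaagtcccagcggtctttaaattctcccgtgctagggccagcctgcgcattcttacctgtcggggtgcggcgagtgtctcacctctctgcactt

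Of 19 glycolysis genes tested, 8 were higher in set 2 and 0 lower, against 2.62% and 3.99% of all genes, 18 lay above 0, and the median was 0.62 log2, or 0.10 under the median shift. PFKL, the liver-type phosphofructokinase, had log2 levels of 9.80 and 9.35 on replicates 1 and 2 against 7.73 on replicate 3 (1.85 ± 0.26, limma adjusted p = 0.00127). GPI was higher by 0.85, the hexokinase HK2 by 0.99 and the glucose transporter SLC2A3 by 1.58. ENO1, among the brightest of the list, was at 13.69 and 13.79 against 13.99 and did not pass (-0.25 ± 0.14, limma adjusted p = 0.334).

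Other large increases belonged to no list in common. NCF1, a subunit of the phagocyte NADPH oxidase that B cells also express, had raw intensities of 3808 and 3070 on replicates 1 and 2 against 1111 on replicate 3 and log2 levels of 12.51 and 11.72 against 9.60 (2.52 ± 0.28, 5.73-fold, limma adjusted p = 0.000418). Its pseudogene NCF1B was higher by 2.53, and the probes of these copies may read the same transcript. HES1, a Notch-pathway repressor, was higher by 2.73, KLHL6, a germinal centre ubiquitin ligase adaptor, by 2.42, TESK2 by 2.60 and the growth factor gene NRG4 by 2.58. TESK2 lost its call under 1 of 17 alternatives, while the others were called under all 17.

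B cell genes were called in both directions. Among 25 surface antigens tested, 6 were higher and 3 lower in set 2, against 2.62% and 3.99% of all genes, with a median of 0.20 log2 that turned to -0.23 under the median shift. CD37, a B cell tetraspanin, was at 11.35 and 11.34 on replicates 1 and 2 against 9.52 on replicate 3 (1.82 ± 0.23, limma adjusted p = 0.00076). CXCR5, the follicle homing receptor, was higher by 1.56, CD38 by 1.34 and CD27 by 0.92. CD86, a T cell costimulator, was lower at 7.83 and 8.08 against 9.44 (-1.49 ± 0.30, limma adjusted p = 0.00922). Of 16 germinal centre genes 4 were higher, BCL6 by 1.28 ± 0.23 (limma adjusted p = 0.00463), IRAG2 by 0.90, MME and BACH2, the last undetected on replicate 3, and 1 was lower, RGS13 by -0.87 log2. Of 16 B cell transcription factors SPIB (1.49), SPI1 (1.24) and TCF3 (1.00) were higher and 0 lower. The medians of both lists also turned negative under the median shift. In MHC class II 0 of 16 were higher and 1 was lower, a count near the share over all genes. That gene, HLA-DMA, shown above for its promoter, had raw intensities of 1497 and 2077 on replicates 1 and 2 against 5444 on replicate 3 and log2 levels of 11.08 and 11.17 against 12.02 (-0.89 ± 0.18, limma adjusted p = 0.00831).

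Spliceosomal small nuclear RNAs had the lowest median of any list in set 2. These short RNAs form the core of the splicing machinery and carry no poly(A) tail as mature molecules. All 15 tested lay below 0, 7 were lower and 0 higher, against 3.99% and 2.62% of all genes, and the median was -1.45 log2. RNU6-1, a U6 RNA, had raw intensities of 663 and 1391 on replicates 1 and 2 against 6676 on replicate 3 and log2 levels of 9.81 and 10.59 against 12.32 (-2.11 ± 0.41, 4.32-fold, limma adjusted p = 0.00793). RNU6ATAC, its counterpart in the minor spliceosome, had 90 and 123 against 522 and log2 levels of 5.333 and 5.998 against 8.386 (-2.72 ± 0.47, 6.59-fold, limma adjusted p = 0.00396). RNU1-3 was lower by -1.80 and RNU4-1 by -1.78 log2. These genes have near-identical copies, so a probe may read several and the members are not independent. Small nucleolar RNAs had a median of -0.35 log2, with 3 of 36 lower, against 3.99% of all genes (SNORA10, SNORD104 and SNORD3A).

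Some interferon-induced genes were lower in set 2. Interferon signals a viral or nucleic acid threat and induces antiviral genes. Of 22 tested 7 were lower and 0 higher, against 3.99% and 2.62% of all genes, 18 lay below 0, and the median was -0.79 log2. IFI44L, an interferon-induced gene, had raw intensities of 70.6 and 89.3 on replicates 1 and 2 against 399 on replicate 3 and log2 levels of 4.34 and 4.83 against 7.92. IFI44L was detected on 1 of the 2 set 2 arrays, replicate 2, so its difference (-3.33 ± 0.50, limma adjusted p = 0.00179) rests in part on a background reading, and it was -1.77 log2 without background correction. IFIT3, of the antiviral IFIT family, was at log2 levels of 5.46 and 5.79 against 7.36 (-1.73 ± 0.37, limma adjusted p = 0.0116). OAS2, an oligoadenylate synthetase, was lower by -1.17 and BST2, tetherin, by -0.77 log2. ISG20, the brightest of the list, did not pass (0.04 ± 0.17, limma adjusted p = 0.94).

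Called genes of protein folding and biosynthesis were mostly lower in set 2. Of 24 genes of the amino acid and ER stress list 5 were lower and 1 higher, against 3.99% and 2.62% of all genes. The lower ones work in ER protein folding or amino acid import: HSPA5, the ER chaperone BiP, at 6.23 and 5.81 on replicates 1 and 2 against 8.11 on replicate 3 (-2.09 ± 0.31, limma adjusted p = 0.0017), CRELD2 (-2.01), SDF2L1 (-1.26), MANF (-0.77) and the amino acid transporter SLC7A5 (-0.77). The list's median was nonetheless 0.28 log2, turned negative under the median shift and without replicate 1, and DNAJB9, another ER chaperone gene, was higher by 1.53. HSPA5 rests on 1 probe, with raw intensities of 113 and 115 on replicates 1 and 2 and 445 on replicate 3. Its set 2 readings were not far above background (73.3 and 79.4). Of 14 heat shock genes 5 were lower and 0 higher, with HSPH1 at 10.86 and 10.83 against 11.90 (-1.06 ± 0.19, limma adjusted p = 0.0054), HSP90AA1 at -0.84 and HSPA8 at -0.61. Cholesterol and fatty acid synthesis had 4 of 24 lower, FASN by -1.39 ± 0.30 (limma adjusted p = 0.0116), FDPS by -1.15, HMGCS1 and NSDHL. Of 23 MYC and ribosome biogenesis genes 3 were lower, NOP16 (-1.24), BOP1 (-1.05) and NOP56 (-0.60), with 0 higher. Of 25 G1/S genes 21 lay below 0 and 2 were lower, the licensing factor CDT1 at 7.81 and 8.26 against 9.47 (-1.43 ± 0.27, limma adjusted p = 0.00605) and MCM5 (-0.91). G2/M genes had 1 of 30 higher, HMGB2 (1.12), a count near the share over all genes, and a median of 0.31 log2 that turned to -0.20 under the median shift. Ribosomal proteins, oxidative phosphorylation and translation factors had medians of -0.01, 0.02 and 0.01 log2.

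Among the remaining large decreases were TMEM107 (-2.37), SLC12A8 (-2.27) and RIMBP3 (-2.12 log2). BEGAIN (-2.84), TELO2, which stabilises PI3K-related kinases (-2.50), and KYNU, kynureninase (-2.22), were undetected on replicate 1 and detected on replicate 2. Without background correction the differences of these 3 genes were -1.48 for BEGAIN, -1.23 for TELO2 and -1.06 log2 for KYNU. ALB, serum albumin and a liver marker, was at 5.02 and 5.78 on replicates 1 and 2 against 7.51 on replicate 3 (-2.11 ± 0.56, limma adjusted p = 0.0335). ALB was called under 12 of 17 alternatives, RIMBP3 under 10 of 17 and KYNU under 15 of 16. Of the 4 liver genes tested this was the 1 called. T and NK cell genes had 1 higher (LCK, undetected on replicate 3) and 1 lower (NKG7, undetected on replicates 1 and 2) of 9. Erythroid and platelet genes had 1 higher (EPOR) of 11. The myeloid, epithelial, fibroblast and neuronal lists had 0 called in the limma analysis. Over all genes 2.62% were higher and 3.99% lower, and single calls in lists this small are not read as a result. The part of other cell types in these results was not tested.

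**Figure D3:**
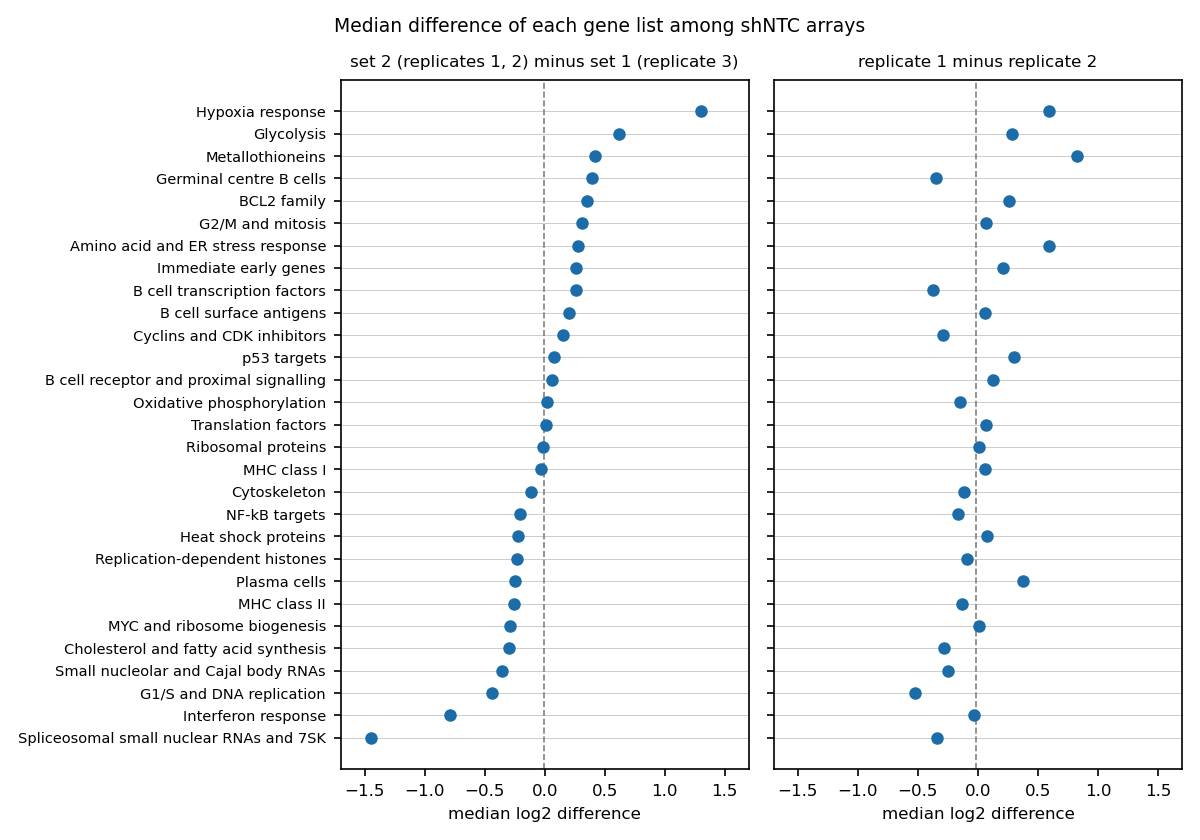
Median log2 difference (horizontal axes) of the tested genes of each list, for set 2 minus set 1 (left panel) and replicate 1 minus replicate 2 (right panel). Dashed lines mark the median over all 13432 genes. In the left panel hypoxia response (1.30) and the spliceosomal small nuclear RNAs (-1.45) lie at the extremes.

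The knockdown arrays, which are not part of the shNTC contrast although they supplied its spread, allowed the same genes to be read again between the sets. Their hairpins differ too, so target and set cannot be told apart there. Of all 13432 genes, 12.4% had all 4 shMBD2 arrays (set 2) above all 5 shMS4A1 and shCREM arrays (set 1), and 9.25% had all 4 below. Of the 352 genes higher in the set 2 shNTC arrays, 226 (64.2%) had all 4 above and 2 had all 4 below, and their median difference was 0.65 log2. Of the 536 lower genes, 336 (62.7%) had all 4 below and 3 had all 4 above, with a median of -0.62. Because the fit calls genes that vary little within the knockdown groups, these shares are a description.

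On the knockdown arrays the lists varied in how they lay between the sets. Lack of overlap was not particular to the lists given below. The medians of B cell surface antigens, B cell transcription factors, MHC class I and G2/M also lay higher throughout set 2. That of MYC and ribosome biogenesis lay lower. By gene, all 4 shMBD2 arrays were above the set 1 knockdown arrays for 6 of 19 glycolysis genes and below for 2. Hypoxia had 4 and 0 of 16, and heat shock 0 and 7 of 14, against 12.4% and 9.25% of all genes. Glycolysis did not overlap between the sets, with median log2 levels of 11.91 and 11.43 on shNTC replicates 1 and 2 and 11.36 to 11.53 on shMBD2, against 10.90 on replicate 3 and 10.63 to 10.93 on the other knockdown arrays. Heat shock genes did likewise in the other direction, at 11.33 and 11.28 on replicates 1 and 2 and 11.20 to 11.31 on shMBD2, against 11.97 on replicate 3 and 11.40 to 12.03 on the other arrays. Hypoxia response did not overlap between the sets either, by a narrow margin, and replicates 1 and 2 were the highest of the 12 arrays, with 7.93 and 7.14, while shMBD2 ranged from 6.33 to 6.57, replicate 3 was at 5.91 and the set 1 knockdown arrays ranged from 5.82 to 6.32. For spliceosomal small nuclear RNAs, replicates 1 and 2 were the lowest of the 12, with 6.75 and 6.99, against 7.83 to 8.27 on shMBD2, 7.99 on replicate 3 and 7.08 to 8.78 on the set 1 knockdown arrays. Interferon genes were high on replicate 3 (7.37) and on shCREM (6.84 and 7.28), while replicates 1 and 2 had 5.55 and 5.81, shMBD2 5.43 to 5.98, and the lowest set 1 knockdown array 5.53. The spread within set 1 thus reached as far as the difference between the sets for that list.

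**Figure D4:**
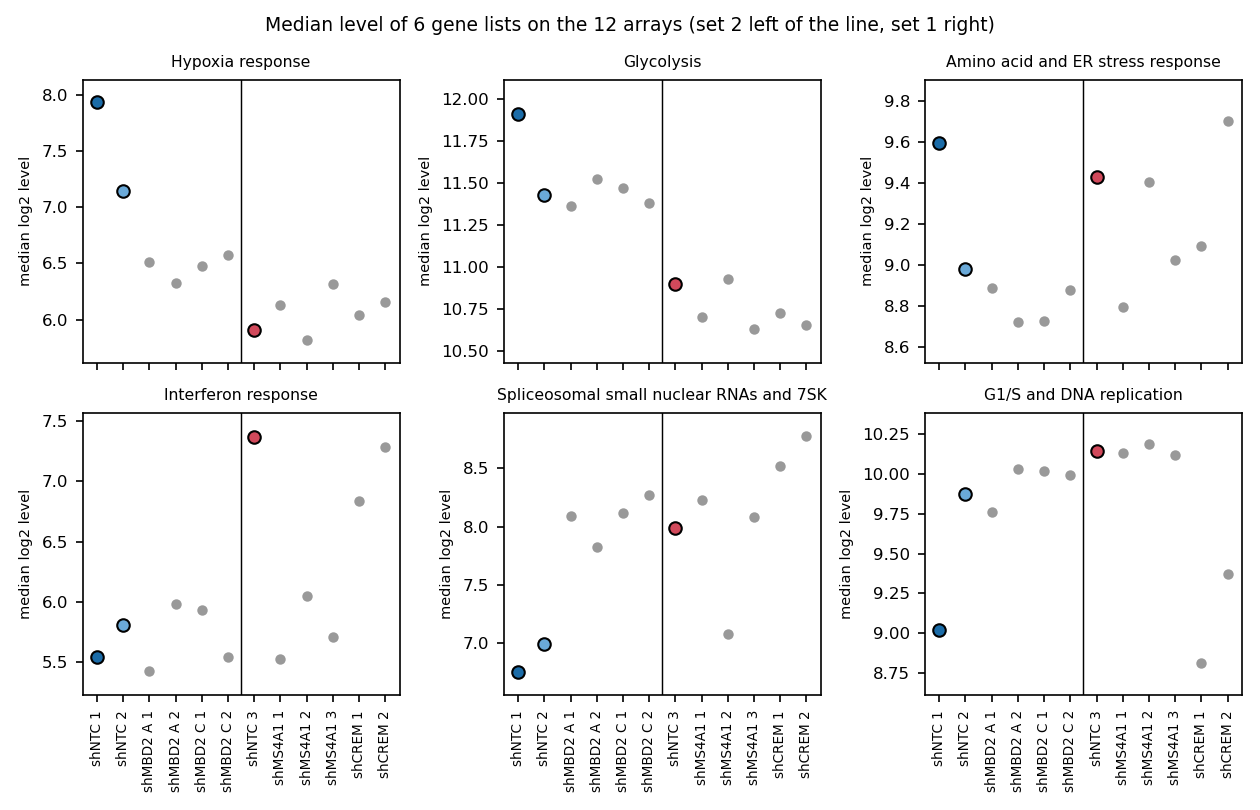
Median normalized log2 level (vertical axes) of 6 gene lists on each of the 12 arrays, with set 2 left and set 1 right of the line and the shNTC arrays in colour. shMS4A1 1, 2 and 3 are hairpins A, B and C, and shCREM 1 and 2 are hairpins A and B. Hypoxia response is highest on shNTC 1 (7.93) and shNTC 2 (7.14), and the interferon response is high on shNTC 3 (7.37) and both shCREM arrays.

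Single genes varied likewise. NCF1 was at 12.51 and 11.72 on replicates 1 and 2 and 11.53 to 11.90 on shMBD2, against 9.60 on replicate 3 and 10.03 to 10.60 on the other knockdown arrays, with no overlap between the sets. FASTK, a mitochondrial RNA-binding protein gene chosen after its values were seen, was at 7.40 and 7.48 and at 8.06 to 8.31 on shMBD2, against 9.48 and 9.57 to 10.11. HSPA5 likewise did not overlap, with shMBD2 at 6.46 to 6.85 and the set 1 knockdown arrays at 7.81 to 8.42. DDIT4 did not overlap between the sets either, with 9.89 to 10.59 on shMBD2 against 7.86 to 8.85 on the set 1 knockdown arrays, but both shNTC arrays of set 2 lay above the shMBD2 range. HILPDA, in contrast, overlapped on the knockdown arrays, at 8.32 to 9.15 on shMBD2 against 8.23 to 9.08, and stood out on shNTC replicates 1 and 2 (11.63 and 11.30). IFI44L was at 7.92 on replicate 3, and the set 1 knockdown arrays spanned 4.28 to 8.72. Differences between shNTC and the knockdown arrays were not tested here.

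**Figure D5:**
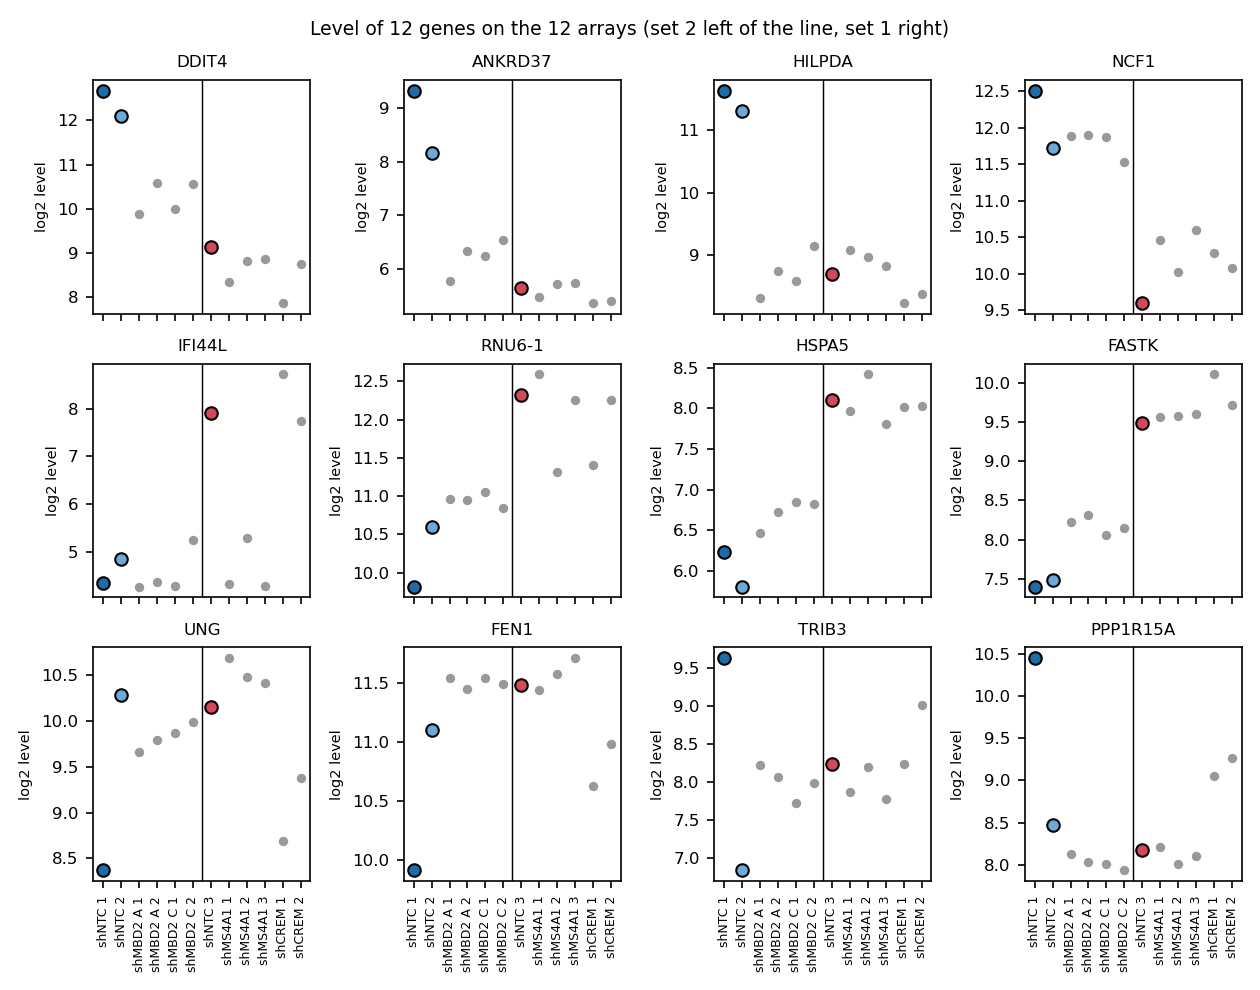
Normalized log2 level (vertical axes) of 12 genes on each of the 12 arrays, drawn as in the plot of 6 lists. DDIT4, ANKRD37, NCF1, RNU6-1, HSPA5 and FASTK do not overlap between the sets over the 12 arrays, ANKRD37 only narrowly, while HILPDA and IFI44L overlap. UNG, FEN1, TRIB3 and PPP1R15A were called between shNTC 1 and shNTC 2.

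Replicates 1 and 2, which share a set, were then compared with each other in a fit with each shNTC array as its own group. There is no repeat of either array, so the difference rests on the spread of the knockdown groups, and this contrast shares both arrays with the one above. The block for replicate number gave another quantity here. It was the difference between replicates 1 and 2 less the mean of the same difference in both shMBD2 hairpins. That setting was counted among the 17 alternatives for this contrast. At an adjusted p under 0.05, 6 genes were higher on replicate 1 (0.0447%) and 7 were lower (0.0521%), and 1689 had an unadjusted p under 0.05. The count was 0 in limma without the intensity trend (1620 at an unadjusted p under 0.05) and with a block for replicate number (1100 unadjusted), and 179 without either shCREM array. The SD of the log2 difference over 13432 genes was 0.46 between replicates 1 and 2, against 0.34 and 0.32 for the 2 repeat pairs of shMBD2, 0.47 for the 2 shCREM hairpins and 0.35 to 0.37 among the shMS4A1 hairpins. Replicates 1 and 2 thus differed more than the repeats of an shMBD2 hairpin, and replicate 3 differed from them by an SD of 0.65 and 0.53.

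Of the 6 genes higher on replicate 1, TRIB3 and XBP1 are on the amino acid and ER stress list. TRIB3, a pseudokinase induced through ATF4, had raw intensities of 598 on replicate 1 and 167 on replicate 2 and log2 levels of 9.64 and 6.84, with 8.24 on replicate 3 (2.80 ± 0.35, 6.96-fold, limma adjusted p = 0.0103). PPP1R15A, which reverses the translational arrest of the stress response, had raw intensities of 998 and 370 and log2 levels of 10.45 and 8.47, with 8.17 on replicate 3 (1.98 ± 0.24, 3.95-fold, limma adjusted p = 0.0103). XBP1, a transcription factor of ER stress and plasma cells, had 2246 and 1150 and log2 levels of 11.68 and 10.32, with 10.61 on replicate 3 (1.36 ± 0.20, limma adjusted p = 0.0305). On these genes replicate 1 had the highest normalized level of the 3 arrays. For TRIB3, replicate 2 was also the lowest of the 12 arrays, with the knockdown arrays at 7.72 to 9.02. HRK, a BH3-only death gene (2.13), the mitochondrial adenylate kinase AK4 (1.20) and CD70 (0.97) were the other genes higher on replicate 1.

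On the lower side, MYBL1, a MYB-family factor of germinal centre cells, had raw intensities of 86.5 on replicate 1 and 243 on replicate 2 and log2 levels of 5.13 and 7.68, with 7.03 on replicate 3 (-2.55 ± 0.34, 5.86-fold, limma adjusted p = 0.0166). UNG, the uracil glycosylase of DNA repair and antibody diversification, had 288 and 1116 and log2 levels of 8.37 and 10.28, with 10.15 on replicate 3 (-1.91 ± 0.28, 3.76-fold, limma adjusted p = 0.0268). FEN1, the flap nuclease of lagging strand synthesis, had 706 and 1992 and log2 levels of 9.91 and 11.10, with 11.49 on replicate 3 (-1.19 ± 0.20, limma adjusted p = 0.0459). For these, replicate 1 had the lowest normalized level of the 3. The others were CDK2AP1 (-1.42), DAPP1, an adaptor of B cell receptor signalling (-1.13), the actin-severing CFL1 (-1.01) and SLC16A12 (-0.95 log2). The 13 genes were called under 7 to 15 of 17 alternatives, with TRIB3 at 15 and PPP1R15A at 14.

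Few list members passed between replicates 1 and 2. Of all genes, 0.0447% were higher and 0.0521% lower on replicate 1, and 48.3% lay above 0. A gene can belong to more than 1 list, as XBP1 does, so the lists are not independent. G1/S and DNA replication genes had a median of -0.52 log2 against -0.0168 for all genes, with 23 of 25 below 0, 2 lower and 0 higher; their median level was 9.02 on replicate 1 and 9.87 on replicate 2, and 10.14 on replicate 3. The amino acid and ER stress genes had a median of 0.59, with 21 of 24 above 0, 2 higher (TRIB3 and XBP1) and 0 lower, and the median was 0.23 under the median shift. ASNS, asparagine synthetase, was at 12.51 and 11.69 but did not pass (0.83 ± 0.21, limma adjusted p = 0.125). Hypoxia genes had a median of 0.59 with 0 called, which was 0.23 under the median shift. Metallothioneins had 0.82 with 0 of 7 called, which was 0.068 with no filter on detection, MT1X being at 10.59 and 8.94 (1.65 ± 0.46, limma adjusted p = 0.157). Germinal centre genes had a median of -0.35, with UNG and MYBL1 lower, and B cell transcription factors -0.38 with 0 called. Glycolysis had a median of 0.29, which turned to -0.13 under the median shift, a scaling under which the median of all genes was -0.21. None of the 4 markers passed: the differences were 0.25 for CD74, 0.34 for CD79A, -0.15 for MYC and -0.06 log2 for MME. Replicate 1 also had the fewest detected probes of the series, and the part of this in the difference was not tested.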

How the data were processed

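Raji RNA was read on 12 Illumina BeadChip arrays after biotin labelling, per the labels' protocols; no scanner software is named there. The deposited tables held, for each array, raw bead intensities and a detection p-value per probe, and a second table of the authors' processed intensities, normalized between arrays. The tables were joined by value: 48107 probes matched uniquely and reciprocally, each at least 3.09 times nearer its match than the next probe. Of these, 30113 had 1 gene symbol, 8 several and 17986 none, and 2 with a missing value were left out. Genes were represented by the probe of highest mean raw intensity over the shNTC arrays (20046 genes). Raw intensities were background-corrected and quantile-normalized with neqc (offset 16) and tested with limma 3.58.1 (R 4.3.3), with an intensity trend and Benjamini-Hochberg adjustment, over 13432 genes detected on at least 2 arrays. Fits had 6 residual degrees of freedom for the set contrast and 5 for the replicate contrast. The number of arrays limits the precision. Other steps used Python 3.11.15, pandas 2.3.3 and matplotlib 3.10.9. The fits were tested on simulated data. Genes named were the markers and MS4A1, the 20 brightest and 5 dimmest detected genes by mean rank, up to 5 brightest and the few undetected members of each list, the 10 largest called differences per direction and contrast (both set 2 arrays on the same side of replicate 3), and up to 4 members per list with the smallest p; further members were chosen after their values were seen. The arrays, members and lists were chosen with earlier results of these data known. Replicate numbers were not used as pairs in the main fits. Same-numbered deviations correlated at -0.01 (shNTC with shMBD2_A), -0.03 (shNTC with shMBD2_C) and -0.09 (shMBD2_A with shMBD2_C). These values cannot show whether arrays of equal number were handled together. Alternatives changed the background correction, scaling, detection filter, variance trend and replicates. Probe choice was changed for the detection and abundance results only, and both contrasts kept the same probe per gene throughout.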

Additional observations from a re-analysis of the deposited data

How the results depend on the processing

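The count of genes differing between set 2 and set 1 was 888 and lay between 633 and 1026 under changes of background correction, detection filter and variance trend. A median shift in place of quantile normalization gave 1348, of which 605 were shared with the 888. Leaving out 1 array gave 415 (shNTC replicate 1) to 1487 (shNTC replicate 2), and without either shCREM array it was 1318 or 1316. The count between replicates 1 and 2, which was 13, was 50 with no background correction, 54 with no filter on detection, 290 in a fit of set 2 alone and 456 on the authors' processed values of set 2, and each of these 4 settings called all 13. It was 0 in limma without the trend (1620 genes at an unadjusted p under 0.05), and leaving out 1 knockdown array gave 2 to 179. With replicate number as a block the set count was 759, of which 746 were shared, and the count between replicates 1 and 2 was 0 (1100 unadjusted). The labels do not say whether arrays of equal number were handled together. Signs turned under the median shift for CD74 (-0.29) and CD79A (-0.12) between the sets. Between replicates 1 and 2 they turned for CD74 (-0.20), CD79A (-0.085) and MS4A1 (-0.00016). MME turned to 0.046 under the block, which for replicates 1 and 2 gave their difference less the mean of that in shMBD2. None of these 6 differences had passed in the contrast concerned. The markers, MS4A1 and the largest called differences of each contrast were compared under each alternative. Counted per gene and alternative, 604 comparisons kept their direction and side of the threshold. Another 117 kept the direction and lost the call, and 6 changed sign. The cause of these shifts was not tested. Genes detected on all 3 arrays numbered 8425 at a detection p under 0.01, against 9026 in the main setting. Signal near background limits what can be said of low genes, since detected and undetected probes overlapped in intensity.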
